A study of Mus musculus with 4 samples.

Results

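The genes described here are 8 enzymes and regulators of cholesterol synthesis, Hmgcs1, Sqle, Idi1, Fdps, Fdft1, Insig1, Cyp51 and Lss, followed through the epithelial cells of the mouse stomach. They were chosen by name, and all 8 were found among the 17712 genes of the count table. The 4 libraries came from 14-week-old female Rosa26iH2b-GFP mice, which carry an H2b-GFP gene switched on by doxycycline through a Tet-on 3G transactivator knocked in at Rosa26. All mice had received doxycycline for 4 weeks and were then chased without it for 6 weeks. Viable cells negative for Cd45 and Cd31 were sorted as Epcam+ cells, whatever their GFP, or as Epcam-positive GFP+ cells, and each sort gave 2 libraries, named Epcam+ 1, Epcam+ 2, GFP+ 1 and GFP+ 2. Cells of 2 mice were combined before loading. No source used here ties the 2 libraries of a sort to separate animals, so each p measures only the spread between libraries, which may be technical. The unit of measurement is the unique molecular identifier (UMI), which stands for 1 captured RNA molecule. The cell types are the 10 clusters assigned by the authors: neck (cluster 0), chief (1 and 5), pit (2), isthmus (3 and 4), endocrine (6 and 7), parietal (8) and tuft (9).

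Cells make cholesterol from acetyl-CoA through mevalonate, isoprenoid diphosphates, squalene and lanosterol. The pathway is under feedback from sterols in the endoplasmic reticulum. When sterols are scarce, the transcription factor SREBP2 (gene Srebf2) is carried to the Golgi by Scap, cut by the proteases Mbtps1 and Mbtps2, and moves to the nucleus, where it turns on most enzymes of the pathway. In the order of the pathway, Hmgcs1 makes HMG-CoA, the precursor of mevalonate. Idi1 isomerises isopentenyl diphosphate, and Fdps joins isoprene units to farnesyl diphosphate, from which prenylated proteins, dolichol and ubiquinone also branch off. Fdft1 (squalene synthase) commits farnesyl diphosphate to sterols, Sqle (squalene epoxidase) oxidises squalene, Lss closes the ring to lanosterol, and Cyp51 demethylates lanosterol. Insig1 is no enzyme: it holds Scap in the endoplasmic reticulum when sterols are plentiful, and it is itself a target of SREBP2.

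The 8 genes lie on 6 chromosomes, in coordinates of GENCODE vM21 on GRCm38 (mm10). Hmgcs1 is at chr13:119690379-119708260, Idi1 at chr13:8885501-8892451, Lss at chr10:76531588-76557138, Insig1 at chr5:28071363-28078662 and Sqle at chr15:59315077-59331192, all on the plus strand. Fdps is at chr3:89093588-89101959, Fdft1 at chr14:63145150-63179578 and Cyp51 at chr5:4081145-4104746, on the minus strand. RefSeq promoter entries (GRCm38.p6) matched 5 of the 8: Hmgcs1, Idi1, Insig1, Cyp51 and Lss. Because the genes moved together between cell types, the 250 bases before each start annotated in RefSeq were searched on both strands for 3 short motifs linked to sterol control of this pathway. The sterol regulatory element TCACNCCAC was found in 1 of the 5, Hmgcs1, against 1.05% of 32851 RefSeq promoter windows of the same length. CCAAT, the box bound by NF-Y, was found in 5 of 5, against 33.8% of all windows, and GGGCGG, the box bound by Sp1, in 5 of 5, against 32.7%. Both CCAAT matches of Idi1, its GGGCGG match and the CCAAT match of Cyp51 lie past the start of the GENCODE gene. The counts therefore hold for the RefSeq starts only. Such a match is a stretch of letters and not a bound site. The windows of Hmgcs1, the member with the sterol element, and of Insig1 and Lss are shown 5′ to 3′ on the gene's strand, cut where the GENCODE gene begins, with the sterol element and CCAAT (or its reverse complement ATTGG) in capitals. They span chr13:119690101-119690350, chr5:28071162-28071362 and chr10:76531355-76531587.
Hmgcs1: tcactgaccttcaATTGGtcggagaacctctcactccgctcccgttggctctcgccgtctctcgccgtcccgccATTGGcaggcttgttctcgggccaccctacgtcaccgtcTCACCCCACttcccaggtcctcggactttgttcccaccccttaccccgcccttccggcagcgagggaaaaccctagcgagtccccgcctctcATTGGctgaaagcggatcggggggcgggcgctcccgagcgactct
Insig1: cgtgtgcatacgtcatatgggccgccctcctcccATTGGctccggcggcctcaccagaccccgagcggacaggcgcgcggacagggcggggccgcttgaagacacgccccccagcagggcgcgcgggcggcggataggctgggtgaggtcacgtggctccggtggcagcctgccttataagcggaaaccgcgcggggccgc
Lss: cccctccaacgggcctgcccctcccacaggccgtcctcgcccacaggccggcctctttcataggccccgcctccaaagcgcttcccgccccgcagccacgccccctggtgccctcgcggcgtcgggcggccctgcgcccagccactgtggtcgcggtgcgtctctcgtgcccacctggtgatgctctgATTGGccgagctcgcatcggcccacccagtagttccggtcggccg

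The libraries held 1642, 1896, 467 and 444 cells and 73876885, 79455225, 35571141 and 47222033 UMIs in Epcam+ 1, Epcam+ 2, GFP+ 1 and GFP+ 2. The 8 genes made up 75030, 56149, 16080 and 8386 of these UMIs, or 0.102%, 0.0707%, 0.0452% and 0.0178%. UMIs were summed per library and cluster, and a sum was used for means and tests where it held at least 20 cells, which 29 of 37 sums did. Only the Epcam+ libraries reached this in clusters 3, 4 and 8. A level is given as CPM, the counts scaled to 1e+06 UMIs of that sum. In chief cells 3 products of these cells, Clps, Pla2g1b and Pgc, held about 82% of the UMIs in cluster 1 and 54.8 to 61.8% in cluster 5, so a CPM over the remaining UMIs is given as well where it matters. Summed defining markers were highest in the clusters they name for pit, parietal and isthmus cells, among them Gkn1 and Muc5ac in cluster 2 and Atp4a and Atp4b in cluster 8. In neck cluster 0 the summed chief markers, at 131908 to 217508 CPM, stood above the summed neck markers (Muc6, Pga5, Tff2 and Cblif, the last also on the chief list), at 19494 to 49503 CPM. In Epcam+ 2 the neck sum was lower in cluster 0, at 23092 CPM, than in clusters 2, 3 and 4, at 24393, 30369 and 27368 CPM. In each library Muc6 and Pga5 were highest in cluster 0, at 3552 to 8392 and 1410.2 to 3421 CPM. In endocrine cluster 7 the summed chief markers, at 213749 to 453211 CPM, stood above the summed endocrine markers, at 73055 to 158982 CPM. Immune, red blood cell and endothelial markers summed to at most 71.7 CPM in any sum of at least 10 cells, and fibroblast and muscle markers to at most 188.7 CPM, in cluster 7. Epcam+ 1 shared 3 cell barcodes with Epcam+ 2 and 1 with GFP+ 2, and the other pairs of libraries shared 0.

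By mean CPM over sums of at least 20 cells, the 8 genes were highest in the cells of the pit and isthmus and lowest in the chief cells of cluster 1. Hmgcs1 stood at 695, 549, 804 and 874 CPM in the pit cells of Epcam+ 1, Epcam+ 2, GFP+ 1 and GFP+ 2, and at 8.92, 8.89, 8.07 and 6.56 CPM in the chief cells of cluster 1. The neck cells lay in between, with 256, 143, 181 and 91.9 CPM. The 3 groups of libraries did not overlap. In isthmus cells Hmgcs1 was at 492 and 386 CPM in cluster 3 and 694 and 498 CPM in cluster 4, in Epcam+ 1 and Epcam+ 2. By mean CPM the order for Hmgcs1 was pit, isthmus 4, isthmus 3, parietal, endocrine 6, endocrine 7, neck, chief 5 and chief 1, and the ranges of 6 of the 8 neighbouring pairs overlapped. Over all libraries counted, pit was highest for 5 genes (Hmgcs1, Idi1, Fdps, Cyp51 and Lss) and isthmus 4 for the other 3 (Sqle, Fdft1 and Insig1). For every one of the 8, the second place belonged to the other of these clusters except for Sqle, where endocrine 6 came second.

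Chief cluster 1 was lowest for 8 of 8 genes, and it remained so over the UMIs left without Clps, Pla2g1b and Pgc and in UMIs per cell. Summed over the 8 genes, the level was 40.04 ± 4.59 CPM (SD, n = 4) in chief cluster 1, 265 ± 81.2 (n = 4) in chief cluster 5, 540 ± 209 (n = 4) in neck and 1911 ± 329 (n = 4) in pit cells. Without the 3 chief products the same sums were 226 ± 27.8, 611 ± 164, 651 ± 246 and 1932 ± 334 CPM. On this scale chief 1 lay nearer to pit cells but still below every other cluster, while chief 5 and neck came to lie within each other's range. Per cell, the 8 genes gave 5.17 ± 1.25 UMIs in chief 1, 12.1 ± 3.06 in chief 5, 14.4 ± 5.70 in neck and 103 ± 47.7 in pit cells.

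**Figure D1:**
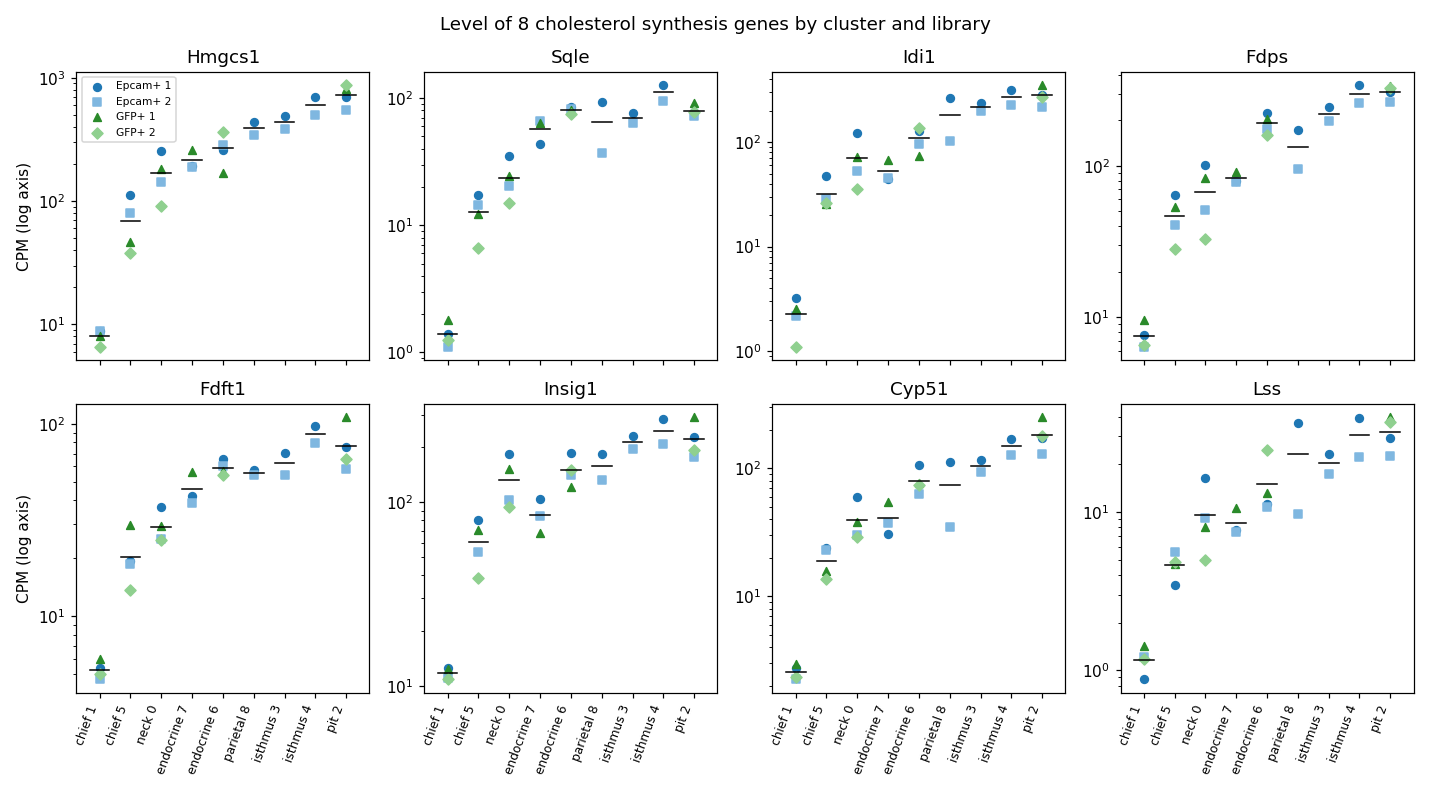
CPM (log axis) of each of the 8 genes in 9 clusters, 1 point per library and cluster with at least 20 cells, with the mean as a line. Chief cluster 1 is lowest in every panel, and pit and isthmus 4 are at or near the top.

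Pit cells exceeded neck cells in all 8 genes. Clusters were compared on TMM-normalised sums by the quasi-likelihood test of edgeR, blocking on the library and adjusting p by Benjamini-Hochberg over 13154 genes. Because the clusters were made from these same counts, a p here says how steadily the libraries repeat a difference and is not independent proof of it. Between pit and neck 55.8% of all genes tested passed the threshold of 0.05, and 25.4% were higher in pit (3337 genes higher and 3998 lower, or 1582 and 6393 over totals without the 3 chief products). The 8 genes had a median log2 difference of 1.92, beside -0.06 over all genes tested, and 8 of 8 passed as higher, in 4 of 4 libraries each. Fdps rose most, by a log2 difference of 2.31 (SE 0.15, adjusted p = 4.11e-13), followed by Hmgcs1 (2.26, SE 0.23, adjusted p = 3.15e-09) and Cyp51 (2.24, SE 0.16, adjusted p = 1.84e-12). The regulator Insig1 had the smallest of the 8 differences, 0.84 (SE 0.13, adjusted p = 3.64e-06). Its levels were 225, 177, 289 and 191 CPM in pit cells and 182, 102, 152 and 93.8 CPM in neck cells, and the lowest pit library lay below the highest neck library.

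Chief cells of cluster 1 were below neck cells in 7 of the 8 genes, in a comparison in which 58.1% of all genes passed and 30.8% were lower (3582 genes higher and 4054 lower, or 162 and 11932 over library totals). Idi1 fell by 2.36 on the log2 scale (SE 0.26, adjusted p = 7.41e-09), with 3.19, 2.17, 2.52 and 1.09 CPM in chief cells against 121, 53.0, 71.5 and 35.3 CPM in neck cells. Hmgcs1 fell by 1.68 (SE 0.24, adjusted p = 1.01e-06), Sqle by 1.48 (SE 0.21, adjusted p = 4.83e-07) and Cyp51 by 1.29 (SE 0.21, adjusted p = 6.16e-06). Insig1 (-0.79), Lss (-0.61) and Fdps (-0.47) also passed, with adjusted p of 1.67e-05, 0.0459 and 0.0146 in edgeR, but Lss and Fdps did not without Epcam+ 1 or without Epcam+ 2. Fdft1 alone did not pass, at a log2 difference of 0.19 (SE 0.12, adjusted p = 0.187). The size and, for Fdft1, the sign depend on how the chief products are handled. TMM left the median log2 difference of all genes at -0.05, whereas over plain library totals it was -2.68 and 8 of 8 genes were lower, with Fdft1 at -2.49, and without the 3 chief products Fdft1 was at -0.26 (adjusted p = 0.0489).

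The 3′ ends of Fdft1, Cyp51, Lss and Fdps lie within another annotated gene. The last 774 bases of Fdft1 overlap the end of Ctsb, a cathepsin gene on the opposite strand, and reads of this assay come from the 3′ ends of transcripts. Whether counting used the strand is not given in the sources used here. Ctsb was at 224, 240, 212 and 205 CPM in neck cells and at 41.7, 43.3, 37.9 and 46.5 CPM in chief cluster 1, and its log2 difference was 0.30 (SE 0.09, adjusted p = 0.00343 in edgeR). Fdft1 amounted to 10.5 to 16.5% of Ctsb in neck cells and to 10.8 to 15.8% in chief cluster 1, but to 20.2 to 38.6% in pit cells and 35.8 to 45.9% in isthmus 4. The part of Ctsb in the Fdft1 counts was not tested. Cyp51 overlaps the end of Akap9, on the opposite strand, over 166 bases, and Akap9 was 0.42 lower on the log2 scale in pit than in neck cells (adjusted p = 0.000378) while Cyp51 was higher. Lss shares 11268 bases with an antisense gene, 4930483K19Rik, and Fdps shares 7512 bases with a protein-coding model on its own strand, Gm43738, and neither of these has an entry in the table used here. Hmgcs1 spans the antisense gene Gm48342, which stayed at or below 4.54 CPM.

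Chief cells of cluster 5 stood closer to neck cells than those of cluster 1 did. Between clusters 5 and 0, 18.1% of all genes passed and 10.3% were higher, and of the 8 genes 1 passed. This was Fdft1, with a log2 difference of 0.43 (SE 0.14, adjusted p = 0.0332). Its levels were 19.4, 18.7, 29.7 and 13.6 CPM in cluster 5 and 37.0, 25.1, 29.5 and 24.8 CPM in neck cells, so that plain CPM was higher in 1 of 4 libraries and CPM without the chief products in 4 of 4. The call was lost without Epcam+ 2, GFP+ 1 or GFP+ 2, and over library totals, which shift the median of all genes to -0.98, 8 of 8 genes were lower (with 352 of all genes higher and 9714 lower, against 1349 and 1028 by TMM). The other 7 had log2 differences between -0.33 (Lss) and 0.46 (Fdps), with edgeR's adjusted p between 0.0618 and 0.913.

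Endocrine and parietal cells were each above neck cells in some of the 8 genes. In endocrine cluster 6, where 65.2% of all genes differed from neck cells and 36.4% were higher (4785 genes higher and 3794 lower, or 6592 and 2529 over library totals), 4 of the 8 passed, all higher and in 4 of 4 libraries. Sqle led with a log2 difference of 1.33 (SE 0.17, adjusted p = 1.01e-07), at 85.5, 82.6, 80.5 and 74.4 CPM in endocrine cells against 35.0, 20.3, 24.5 and 14.9 CPM in neck cells, with no overlap. Fdps followed at 1.12 (SE 0.16, adjusted p = 7.25e-07), then Fdft1 at 0.60 and Cyp51 at 0.60, with adjusted p of 0.000361 and 0.0107 in edgeR. Hmgcs1 (0.29), Idi1 (0.19), Lss (-0.12) and Insig1 (-0.21) did not pass. Without GFP+ 2, Cyp51 no longer passed and Insig1 passed as lower.

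In parietal cells, measured in the 2 Epcam+ libraries with 23 and 28 cells, 37.3% of all genes differed from neck cells and 17.6% were higher (2313 genes higher and 2595 lower, or 2734 and 1983 over library totals). Here 5 of the 8 passed as higher, in 2 of 2 libraries: Sqle (1.18, SE 0.25, adjusted p = 0.000359), Idi1 (1.06, SE 0.28), Hmgcs1 (0.96, SE 0.29), Fdft1 (0.80, SE 0.20) and Fdps (0.76, SE 0.22), all with an adjusted p of at most 0.00924 in edgeR. Insig1 was at 0.04 (SE 0.19). The parietal libraries spread widely, since Idi1 stood at 263 CPM in Epcam+ 1 and 102 CPM in Epcam+ 2, and Lss at 36.6 and 9.66 CPM. Without Epcam+ 1 or without Epcam+ 2, which leaves a lone parietal library, fewer of the 8 were called. Counts over all genes are not given for these fits.

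**Figure D2:**
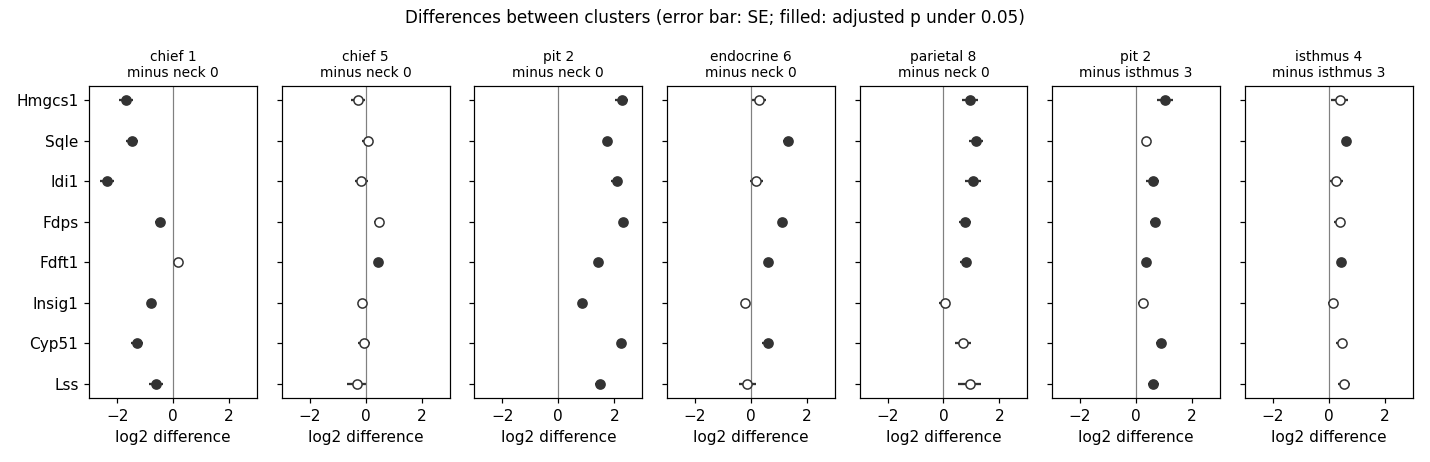
Log2 difference of each gene in 7 comparisons of clusters, with its SE as a bar, from edgeR fits on sums per library and cluster. Filled points passed an adjusted p of 0.05: 7 of 8 in chief 1 against neck, 1 in chief 5, 8 in pit, 4 in endocrine 6, 5 in parietal, 6 in pit against isthmus 3 and 2 in isthmus 4 against isthmus 3.

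The isthmus holds the dividing cells of the gland, and the 8 genes were high in its clusters 3 and 4. Between pit and isthmus 3, 37.1% of all genes differed and 16.2% were higher in pit, and 6 of the 8 passed as higher. Hmgcs1 had the largest log2 difference, 1.03 (SE 0.29, adjusted p = 0.0059), and Cyp51 the smallest p (0.89, SE 0.18, adjusted p = 0.000291). Sqle (0.35) and Insig1 (0.25) did not pass, and within Epcam+ 1 and Epcam+ 2 the plain CPM of Insig1 was lower in pit than in isthmus 3, at 225 and 177 against 230 and 195. The number called was 3 over library totals (1164 of all genes higher and 3613 lower, against 2135 and 2747 by TMM), 2 without Epcam+ 1 and 1 without Epcam+ 2. Clusters 3 and 4 differed in 13.7% of all genes, with 6.73% of all genes higher in 4, and 2 of the 8 passed as higher in cluster 4. They were Sqle, at 127 and 94.97 CPM against 75.8 and 63.8 (0.62, SE 0.16, adjusted p = 0.00744), and Fdft1, at 97.2 and 79.1 CPM against 70.9 and 54.2 (0.46, SE 0.12, adjusted p = 0.0122). All 8 were higher in cluster 4 in both libraries, and neither call held when Epcam+ 1 or Epcam+ 2 was left out. The summed isthmus markers, which include Mki67 and Top2a, ranged over libraries from 997 to 1346 CPM in cluster 3 and from 2082 to 2228 CPM in cluster 4.

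Sums with fewer than 20 cells are given with exact 95% Poisson intervals, which cover counting error only. In tuft cells Hmgcs1 gave 373 UMIs in 18 cells of Epcam+ 1, or 972 CPM (876 to 1076), and 104 UMIs in 13 cells of Epcam+ 2, or 424 CPM (347 to 514), so that 1 library lay above and 1 below all 4 pit libraries. Fdft1 in tuft cells was at 162 CPM (124 to 207) and 122 CPM (82.6 to 175), above every sum of at least 20 cells. The highest of these sums, at 108 CPM, lay within the interval of Epcam+ 2. Fdps there was at 388 CPM (329 to 456) and 355 CPM (284 to 438), where the highest sum of at least 20 cells, at 342 CPM, lay within both intervals. Together the 8 genes gave 2403 and 1481 CPM in tuft cells and 2348 CPM in the isthmus 3 cells of GFP+ 1, and the first and last of these lay above the highest pit library, at 2272 CPM. In the GFP+ libraries 17 and 10 cells lay in isthmus 3, with Hmgcs1 at 793 CPM (743 to 846) and 492 CPM (434 to 556). In isthmus 4 they held 11 and 8 cells, with Hmgcs1 at 542 CPM (488 to 600) and 693 CPM (626 to 765). No test was made on these sums.

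The mix of the 8 genes changed with the cell type too. A share of the summed UMIs of the 8 does not depend on how libraries are scaled, and it is compared here for 1 gene between clusters and not between genes. Insig1 took 22.5, 23.5, 25.8 and 28.7% of the sum in neck cells, 27.7 to 31.1% in chief 1 and 20.3 to 27.3% in chief 5, but 9.47 to 12.7% in pit cells and at most 19.2% in every other cluster. The 3 clusters of neck and chief cells thus lay apart from the other 6 in each library. Idi1 took 7.46, 5.76, 5.62 and 3.14% in chief 1, below its lowest value in any other cluster, 8.20%. Fdft1 took 12.4 to 14.4% in chief 1, above its highest value elsewhere, 11.5%, which was the GFP+ 1 library in chief 5. Sqle took 7.16 to 12.1% in the endocrine clusters and at most 6.91% elsewhere. Hmgcs1 took 35.4 to 43.3% in pit cells and 18.0 to 23.6% in chief 1. These shares are descriptions with no test.

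**Figure D3:**
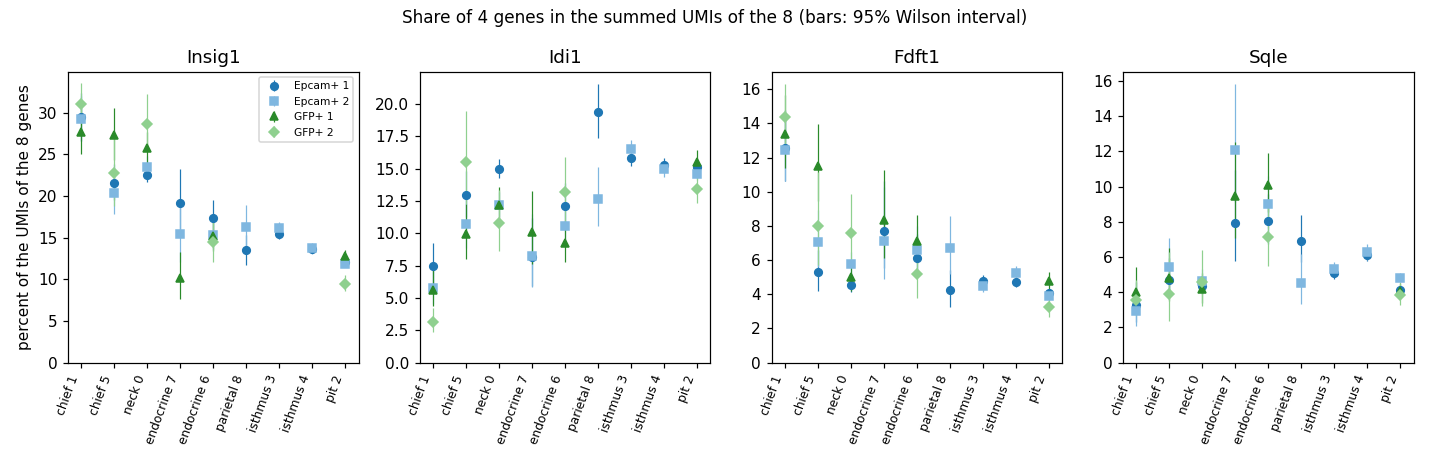
Share (percent) of Insig1, Idi1, Fdft1 and Sqle in the summed UMIs of the 8 genes, 1 point per library and cluster with a 95% Wilson interval. Insig1 is at 20.3% or more in neck and chief clusters and at 19.2% or less in the others, and Idi1 and Fdft1 set chief 1 apart in opposite directions.

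The share of cells with at least 1 UMI of a gene was compared as well. Cells were thinned to 12773 UMIs after Clps, Pla2g1b and Pgc were left out, which 445 of 4449 cells did not reach, and the expected share of cells with a UMI was computed. For Idi1 it was 84.5 ± 4.12% (SD, n = 4) in pit, 39.9 ± 9.53% in neck and 12.9 ± 4.86% in chief 1 cells (n = 4 each). Unthinned, the shares were 95.6%, 50.6% and 20.5%. For Fdft1 the thinned shares were 52.6 ± 10.2% in pit, 30.3 ± 5.02% in neck and 32.3 ± 3.95% in chief 1 cells, the last pair within each other's spread. Chief 1 had the lowest thinned share for 7 of the 8 genes, Fdft1 being the exception, and the lowest unthinned share for 4 of 8. At the top the order was not that of the mean CPM over all libraries counted. Isthmus 4, with the 2 Epcam+ libraries only, had the highest mean thinned share for 7 genes, with 90.04% for Idi1. For Cyp51 it was at 77.02% and pit cells at 77.03%. Lss was the sparsest gene, with a thinned share of 8.11 ± 1.16% in chief 1 and 28.1 ± 4.22% in pit cells. The cells left out as too shallow were unevenly spread, with 124 of 896 in chief 1, 93 of 278 in chief 5 and 15 of 884 in pit. No stomach cell type is known to lack these genes, so no background share from free RNA could be set.

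Within 1 cluster the libraries of a sort could differ as much as the sorts. In neck cells the 8 genes summed to 809 and 435 CPM in Epcam+ 1 and Epcam+ 2 and to 588 and 327 CPM in GFP+ 1 and GFP+ 2, and Epcam+ 1 was the highest and GFP+ 2 the lowest library for 8 of 8 genes. The neck markers without Cblif, of which Tff2 made up the most, were also higher in the libraries numbered 1, with 48603 and 43845 CPM in Epcam+ 1 and GFP+ 1 and 22279 and 17886 CPM in Epcam+ 2 and GFP+ 2. Muc6 alone stood at 6068 and 8392 CPM in the former and at 3552 and 5330 CPM in the latter. Their part in the members' spread was not tested. All 8 genes were lower in each GFP+ library than in the Epcam+ library of the same number. The share of all genes with either of these library orders was not counted. Between GFP+ and Epcam+ neck cells none of the 8 passed (0 of 8, smallest adjusted p in edgeR 0.521, with 0 at an unadjusted p under 0.05 also in DESeq2), where 0.159% of all genes did. With the replicate number as a block, 3 of the 8 were called lower, although no label says what libraries of a number share.

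The comparison of sorts asks whether cells that had kept the histone label carried these genes at another level. The paper reports that only part of the stomach epithelial cells took up the label, so its absence need not mean more divisions. How often the cells of either sort had divided was not measured here. In pit cells the 8 genes leaned upward in the GFP+ libraries without passing. They summed to 1864 and 1487 CPM in Epcam+ 1 and Epcam+ 2 and to 2272 and 2020.1 CPM in GFP+ 1 and GFP+ 2. All 8 log2 differences were positive, from 0.32 (Sqle, SE 0.11) to 0.69 (Lss, SE 0.17). In edgeR 7 had an unadjusted p under 0.05, a threshold for which no share of all genes is given here. None passed in edgeR (0 of 8, adjusted p 0.114 for Hmgcs1 to 0.343 for Insig1), where 0.364% of all genes passed, and 1 passed in DESeq2. For 5 genes (Hmgcs1, Sqle, Fdps, Cyp51 and Lss) both GFP+ libraries lay above both Epcam+ libraries. The share of all genes with this order was not counted, and the 8 genes moved together, so they are not separate observations. The GFP+ sums rest on 42 and 27 pit cells, against 363 and 452, at a median of 66631 and 63533 UMIs per cell against 39342 and 34707. The summed pit markers were higher in them as well, at 146117 and 205603 CPM against 102282 and 120795 CPM, and the 2 immune markers measured of 4 listed summed to 71.7 CPM in GFP+ 2 and 10.4 CPM or less in the others. The part of these differences was not tested.

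In the chief cells of cluster 5 the direction was the opposite for the first enzyme of the list. Hmgcs1 stood at 113 and 80.4 CPM in Epcam+ 1 and Epcam+ 2 and at 46.4 and 38.2 CPM in GFP+ 1 and GFP+ 2, without overlap, and fell by 1.10 on the log2 scale (SE 0.21, adjusted p = 0.0416), lower in both GFP+ libraries. It was the only 1 of the 8 to pass, where 0.309% of all genes did and 0.264% were lower, and it no longer passed without Epcam+ 1 (log2 difference -0.78, adjusted p = 0.622). With the replicate number as a block and over totals without the 3 chief products it missed the threshold at an almost equal difference, -1.09 in both, with adjusted p of 0.0907 and 0.0609 in edgeR. Sqle (-0.63) and Cyp51 (-0.58) also had both GFP+ libraries below both Epcam+ libraries, with adjusted p of 0.571 and 0.472 in edgeR, as did Idi1. The summed pit markers were lower in the GFP+ libraries of this cluster, at 4032 and 2084 CPM against 8781 and 8679 CPM, and their part was not tested. In chief cluster 1, with 145 and 257 GFP+ cells, 0 of 8 passed in edgeR (smallest adjusted p 0.707, and 0 at an unadjusted p under 0.05 there and in DESeq2), where 0.0887% of all genes did. In endocrine cluster 6 none passed either (0 of 8, smallest adjusted p in edgeR 0.813, 0 at an unadjusted p under 0.05 there and in DESeq2), where 0.221% did.

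Differences in the effect of the sort between clusters were tested as interaction terms, blocking on the library. Against chief cluster 1 none of the 8 passed in clusters 0, 2, 5 or 6 (0 of 8 each), where 0.113%, 0.286%, 0.0173% and 0.379% of all genes did. The smallest adjusted p in edgeR was 0.083, for Hmgcs1 in pit cells, at a log2 difference of effects of 0.84 (SE 0.17). The number at an unadjusted p under 0.05 was 2, 4, 4 and 1. All shares of all genes in this paragraph are for the adjusted p, and none is given for the unadjusted p. Between pit and chief cluster 5, a pair chosen after the values were seen, 2 of 8 passed, where 0.868% of all genes did and 0.572% were higher. The effect was larger in pit cells by 1.64 for Hmgcs1 (SE 0.21, adjusted p = 0.00126) and by 1.23 for Cyp51 (SE 0.24, adjusted p = 0.0294 in edgeR), the latter lost without Epcam+ 1, Epcam+ 2 or GFP+ 1. All 8 differences of effect had this direction, and the other 6, from 0.25 to 0.95, did not pass. Of 3 more pairs chosen likewise, pit against neck, pit against endocrine 6 and endocrine 6 against neck, none gave a call among the 8 in edgeR (0 of 8 each, with 5, 7 and 1 at an unadjusted p under 0.05), where 0.684%, 0.268% and 0.161% of all genes passed.

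**Figure D4:**
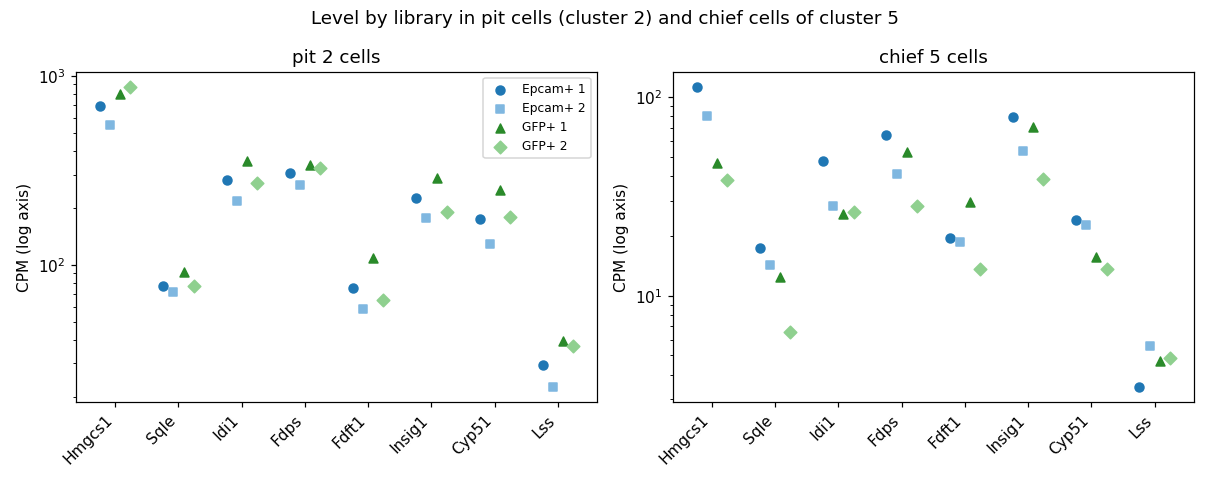
CPM (log axis) of the 8 genes in each library, for pit cells (left) and chief cells of cluster 5 (right). In pit cells the GFP+ points of Hmgcs1, at 804 and 874 CPM, lie above the Epcam+ points, and in cluster 5, at 46.4 and 38.2 CPM, below them.

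The rest of the pathway was read from 6 further lists, of which members among the 4 most abundant genes each are named. Their counts stand beside the shares of all genes tested, which were 25.4% higher and 30.4% lower in pit against neck, 27.2% and 30.8% in chief 1 and 36.4% and 28.8% in endocrine 6, and beside medians over all genes of -0.06, -0.05 and 0.09. Of 15 other sterol enzymes and helpers 14 were higher in pit than in neck cells and 11 were lower in chief 1, with 2 higher, and the medians were 1.10 and -0.86. Msmo1, a sterol methyl oxidase, was at 1.79 in pit and -1.68 in chief 1 cells. Ebp, the sterol isomerase, was at 0.79 in pit and at -0.06 in chief 1, where it did not pass. Erg28, a scaffold of the late enzymes, was at 0.19 and -1.01. Tm7sf2 was the only 1 of the 15 that did not pass in pit cells.

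Of 9 genes that sense sterols or process SREBP, 5 were higher and 1 lower in pit cells, and 3 were higher and 5 lower in chief 1, with medians of 0.22 and -0.30. Srebf2 itself was at 0.87 in pit and -1.34 in chief 1. Insig2, the relative of Insig1, went another way: it was higher in both, at 0.71 and 0.60, and in endocrine cluster 6 at 1.17, where Insig1 was at -0.21. Mbtps1 was lower in both pit (-0.50) and chief 1 cells (-0.30).

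Among 7 genes of uptake and handling, 3 were higher and 3 lower in pit cells, and 6 were lower and 1 higher in chief 1, with medians of -0.10 and -1.03. The sterol carrier Stard4 moved with the 8 genes, at 1.27 in pit and at -3.49 in chief 1. It stood at 0.563 CPM on average in chief 1, against 33.7 CPM in neck cells. Soat1, which esterifies cholesterol for storage, moved against them, at -1.64 in pit and 1.30 in chief 1, and Npc2, which hands cholesterol out of lysosomes, was at -1.33 and -0.58. Of 6 genes of efflux and of the LXR response, 0 were higher and 3 lower in pit cells, while in endocrine cluster 6 4 were higher and 2 lower, with the exporters Abca1 at 4.25 and Abcg1 at 3.62. The list's medians were -1.08 in pit and 1.63 in endocrine 6. Abca1 averaged 55.1 CPM in endocrine 6 and 2.18 CPM in neck cells. Mylip, a ubiquitin ligase induced by LXR, was at -2.24 in pit cells, and Nr1h2, a receptor for oxysterols, did not pass there (-0.15).

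Of 9 genes of the isoprenoid branches, which draw on the product of Fdps, 4 were higher and 2 lower in pit cells, and 3 were higher and 0 lower in chief 1. Their median log2 differences were 0.10 and 0.03. Nus1, a subunit of the dolichol-making transferase, was at 0.31 and 0.37 and Coq2, of ubiquinone synthesis, at 0.47 and 0.18 (the latter not past the threshold), while the prenyltransferase subunits Fnta (0.10 and -0.15) and Pggt1b (-0.10 and -0.04) passed in neither. Of 12 genes of fatty acid synthesis 5 were higher and 3 lower in pit cells, and 1 was higher and 9 lower in chief 1, with medians of 0.05 and -0.88. Me1, which supplies NADPH, was at 4.12 in pit and -2.996 in chief 1, and Mid1ip1 at 1.06 and, without passing, -0.22. Acly, which makes cytosolic acetyl-CoA, was lower in pit (-0.64) and chief 1 (-0.89) and higher in endocrine 6 (1.45), and Scd2 passed in none of these 3. No gene tested from the 6 lists passed between GFP+ and Epcam+ cells in any of the 5 clusters tested. Of all genes, 0.0887% (chief 1) to 0.364% (pit) passed there, so few or no calls would be expected in lists of this size.

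Over the 29 sums of at least 20 cells, log2 TMM-normalised CPM of the 8 genes correlated pairwise with Pearson r from 0.714 (Sqle and Lss) to 0.955 (Hmgcs1 and Idi1). Without the chief clusters, over 21 sums, r ran from 0.510 (Sqle and Insig1) to 0.943 (Idi1 and Lss). The sums share libraries and depth, and no p is given. Against the mean of the 8 genes, Cyp51 stood closest (r = 0.983) and Fdft1 farthest (r = 0.863). Each of the 8 is part of this mean, which raises its r, so these values are not comparable with those of other genes. Of 4331 other genes with a mean of at least 20 CPM, the 10 most alike ran from Msmo1 (r = 0.953) to Cmtm4 (r = 0.906), with Acsl3, Fam120a, Ucp2, Stard4, Txnrd1 and Ugdh among those between them. These genes were picked over the same sums as the cluster comparisons, so their differences between clusters are given as a description. Acsl3, which activates fatty acids, was at 1.94 in pit, -2.62 in chief 1 and -0.61 in endocrine 6, and Ugdh, which makes UDP-glucuronate, at 4.002, -1.06 and (not passing) 0.31. Srebf2 came at rank 14 (r = 0.893), whereas Soat1 was near the bottom at rank 4287 (r = -0.84).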

How the data were processed

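Single cells of the mouse stomach were measured by droplet-based 3′ RNA-seq (10x v3). Counts were made by the authors with Cell Ranger 3.0.2 (mm10), keeping cells that had 1500 to 8000 genes, at most 15% of counts from mitochondria and no count of Ptprc or Pecam1. The deposited values are these raw UMI counts for 4449 cells, given with a cluster and a library for every cell, and 0 value columns were left unused. UMIs were summed per library and cluster and tested with edgeR 4.0.16 (R 4.3.3): TMM factors, filterByExpr, two-sided quasi-likelihood test, Benjamini-Hochberg at 0.05. GFP+ and Epcam+ libraries were compared with no block, clusters and interactions with the library as a block. All 8 genes passed the filter in every edgeR fit. The code was tested on simulated data. Other factors, no filter, DESeq2 1.42.0, a replicate block, 10 cells per sum and each library left out were tried. The genes and lists were chosen with earlier results of these data known. Besides the 8 genes, the 4 most abundant of each list and the 10 most alike were to be named, and some of these are not reported here. Ctsb, Akap9, Gm43738, Gm48342, 4930483K19Rik and Tm7sf2 were named after their values were seen. Doublets were not called here. Depth is given per library in the text, and intervals cover counting error only.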

Additional observations from a re-analysis of the deposited data

Results flagged for a closer look

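In 1 of 40 groups of 4 libraries (8 genes in clusters 0, 1, 2, 5 and 6) a library stood far from the others by Dixon's criterion, which chance does in about 1 of 20 groups. This was Idi1 in chief cluster 5, where Epcam+ 1 was at 47.7 CPM and the other 3 libraries at 25.7 to 28.3 CPM.

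The effect of the sort differed between pit cells and chief cluster 5 for 2 genes. For Hmgcs1 the difference of effects was 1.64 on the log2 scale (SE 0.21, adjusted p = 0.00126 in edgeR's interaction test), higher in both GFP+ libraries of pit cells and lower in both of cluster 5. For Cyp51 it was 1.23 (SE 0.24, adjusted p = 0.0294), with the same pattern. This pair of clusters was chosen after the values were seen.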

How the results depend on the processing

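The 8 genes higher in pit than in neck cells were 8 of 8 under every alternative run, and those lower in chief 1 were 5 to 8. Over library totals the call in chief 5 reversed, from 1 gene higher to 8 lower (Fdps -0.52, Fdft1 -0.55 and Sqle -0.92), Fdft1 in chief 1 was at -2.49, and in endocrine 6 Insig1 was at 0.18 and Lss at 0.25. Over totals without Clps, Pla2g1b and Pgc, Fdft1 in chief 1 was at -0.26, Lss in endocrine 6 at 0.040 and Insig1 in parietal cells at -0.028, and Hmgcs1 was lost in GFP+ cells of chief 5 (0 called). Both of these settings called 3 genes in pit against isthmus 3 rather than 6. With sums of 10 cells, 0 genes were called in chief 5 against neck and 1 in isthmus 4 against 3, where Insig1 was at -0.12 and Idi1 at -0.061. DESeq2 called 0 genes in isthmus 4 against 3 and 1 between sorts in pit cells, and gave Cyp51 at 0.0024 in chief 5 and Lss at 0.14 in endocrine 6. Without a filter 5 genes were called between sorts in pit cells (346 of all genes higher and 293 lower, against 23 and 17), 3 interactions against cluster 1 and 10 between other pairs of clusters (2 with the filter, 1 over totals without the 3 chief products). Without thinning, 4 genes rather than 7 had their lowest share of cells in chief 1.

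With the replicate number as a block, 3 genes were called lower in GFP+ neck cells, 2 higher in GFP+ pit cells and 0 in chief 5, and none in clusters 1 and 6. Over all genes the block gave 350 higher and 301 lower in neck (against 10 and 8), 290 and 124 in chief 1 (against 4 and 5), 150 and 72 in pit (against 23 and 17) and 31 and 65 in endocrine 6 (against 6 and 16). Same-numbered libraries deviated together with r of 0.233, 0.180, 0.180, -0.037 and 0.146 in clusters 0, 1, 2, 5 and 6, over only 2 pairs, so the numbers were not taken to pair them.

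With each library left out in turn, where a lone library is assumed to vary like the others, the number called ran from 0 to 1 between sorts in neck cells (1 without GFP+ 1), 0 to 2 in pit (2 without Epcam+ 1) and 0 to 1 in chief 5 (0 without Epcam+ 1). Between clusters it ran from 0 to 1 in chief 5 against neck, 2 to 5 in parietal against neck, 1 to 6 in pit against isthmus 3 and 0 to 2 in isthmus 4 against 3. For interactions it ran from 0 to 3 against cluster 1 (3 without GFP+ 1) and from 1 to 5 between other pairs (1 without Epcam+ 1, 5 without either GFP+ library). The sign turned with a library left out in these ranges: in chief 5 Cyp51 (-0.28 to 0.11), Lss (-0.51 to 0.27) and Sqle (-0.085 to 0.15), in endocrine 6 Lss (-0.47 to 0.41), Idi1 (-0.14 to 0.46) and Hmgcs1 (-0.12 to 0.54), and in parietal cells Insig1 (-0.058 to 0.12). Counts over all genes are not given for the fits with a library left out, and the cause of these changes was not tested. The alternatives for interactions, and the pairs of clusters other than with cluster 1, were added after seeing the data.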
